A study of Mus musculus with 6 samples.

Results

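Lgr5, Ascl2, Axin2, Cd44, Sox9, Myc, Ephb2, Ephb3, Tcf7 and Nkd1 are genes of the colonic crypt base and of the Wnt response, and their transcripts were compared between mucosa of mice without Tlr2 and mucosa of wild-type mice. Every probe whose accession belonged to 1 of these 10 genes was taken, which gave 18 of the 41174 probes on the arrays and 10 of the 14701 named genes tested. The knockout samples were labelled Tlr2 knockout, the wild-type samples were labelled wild type, and both came from colonic mucosa of C57BL/6 mice at 90 postnatal days. The labels used here do not say how the Tlr2 allele was made, the sex of the animals, or whether each sample was 1 animal. The p-values below therefore concern these samples only. Tlr2 is a cell-surface receptor for bacterial lipoproteins. Each of 4 two-colour expression arrays held 1 knockout and 1 wild-type sample, and the arrays are called pairs 1, 2, 4 and 5 after the number of the knockout sample. The knockout sample carried Cy3 in pairs 1 and 2 and Cy5 in pairs 4 and 5. The fit below takes out a dye effect. Its p-values and intervals therefore rest on the spread between arrays of the same dye orientation, moderated over all genes. They do not measure the whole spread over the 4 arrays, which is given as the SD.

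In the colon, epithelial cells are renewed from stem cells at the crypt base, where Wnt ligands and R-spondins keep beta-catenin from being degraded. Beta-catenin then acts with TCF/LEF factors to switch on target genes, and these include receptors, transcription factors and inhibitors that damp the same signal. Cells lose this signal as they move up the crypt and differentiate. The 10 genes are widely used as readouts of that gradient.

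All 10 genes were measured well above background in both channels of all 4 arrays, by Agilent's test of a spot against its local background, and none of their spots was saturated. The scraped mucosa also carried the defining markers of other cells. All 7 epithelial markers, all 7 markers of absorptive colonocytes, all 6 fibroblast markers, all 6 smooth muscle markers and 7 of 8 T cell markers were well above background in all 8 channels, Il7r being the T cell exception. Each value is therefore a mixture, in which fewer cells of a type and less RNA per cell cannot be told apart. Tlr2 itself had log2 ratios of knockout over wild type between -5.50 and -4.20 on the 4 arrays, so the direction of each array followed its labels. Over 14690 genes, the ratios of pair 1 correlated negatively with those of the other arrays (Pearson r = -0.21 with pair 2, -0.42 with pair 4 and -0.10 with pair 5), while the other arrays correlated with each other between 0.42 and 0.57.

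None of the 10 genes passed the test across all genes, and the ratios of most of them lay on both sides of 0. Axin2 and Sox9 were higher in the knockout sample on all 4 arrays, Tcf7 was slightly lower on all 4, and Cd44 and Lgr5 were lower on 3 and higher in pair 1. The mean log2 ratios of the 10 genes ran between -0.49 for Cd44 and 0.46 for Sox9, with a median of -0.09 against -0.01 over all genes tested. In limma, with a dye term and Benjamini-Hochberg adjustment over all genes, 0 of 10 were called at an adjusted p under 0.05, against 0% of all genes, and Tlr2 itself had an adjusted p of 0.314. At an unadjusted p under 0.05, 2 of 10 passed, Axin2 and Sox9, against 8.09% of all genes (1190, where 735.05 would be reached with uniform p-values). A hit, as the submitters defined it, needed a change of more than 1.6-fold on 2 or more of the 4 arrays, with no array going the other way. By that rule 0 of 10 were hits, against 1.48% of all genes, and none of the 10 is listed in the authors' deposited tables of 328 increased and 277 decreased transcripts. A positive ratio on all 4 arrays was found for 2 of 10 genes, against 7.18% of all genes, and a negative ratio on all 4 for 1 of 10, against 8.41%.

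**Figure D1:**
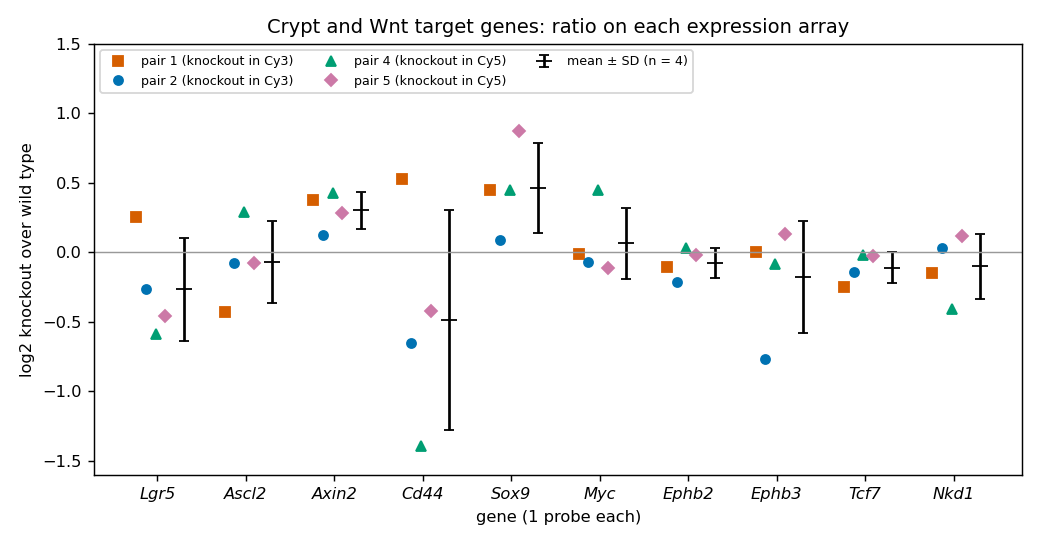
Log2 ratio of knockout over wild type (vertical axis) for the 10 crypt and Wnt target genes, with 1 symbol per array pair and the mean ± SD over 4 arrays as a black bar. Axin2 and Sox9 lie above 0 in every pair, Tcf7 lies just below it in every pair, and Cd44 has the widest spread, with pair 1 at 0.53 and pair 4 at -1.39.

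Lgr5 is an R-spondin receptor that marks cycling stem cells at the crypt base. Its normalised log2 signal was 9.15, 9.31, 8.41 and 8.64 in the knockout samples of pairs 1, 2, 4 and 5, against 8.89, 9.57, 8.999 and 9.10 in their wild-type partners. The knockout samples of pairs 4 and 5 were lower than every wild-type sample, and the groups overlapped through pairs 1 and 2. The log2 ratios were 0.25, -0.26, -0.59 and -0.46, with a mean of -0.26 ± 0.37 (SD, n = 4), a 95% interval between -0.61 and 0.08 and an adjusted p of 0.639 in limma. Leaving out 1 array at a time, the fitted log2 ratio ran from -0.39 without pair 1, with an adjusted p of 0.134 in limma, to -0.14 without pair 2. Split by dye, the mean was 0.00 over pairs 1 and 2 and -0.52 over pairs 4 and 5.

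Ascl2 is a transcription factor of the same stem cells. Its log2 signal was 7.23, 7.70, 8.001 and 7.22 in knockout samples, against 7.66, 7.77, 7.71 and 7.29 in wild-type samples. The groups overlapped, and only the knockout sample of pair 4 exceeded its partner. The mean log2 ratio was -0.07 ± 0.29 (SD, n = 4), with an interval between -0.41 and 0.26 and an adjusted p of 0.911 in limma. With Agilent's processed signals and no loess, the fitted log2 ratio of Ascl2 was -0.16. Lgr5 and Ascl2 had opposite signs in pairs 1 and 4 and were both negative in pairs 2 and 5.

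Axin2 and Nkd1 are targets that feed back on the pathway, Axin2 as a scaffold of the complex that degrades beta-catenin and Nkd1 as an inhibitor that binds Dishevelled. Axin2 had a log2 signal of 8.97, 9.02, 9.09 and 9.06 in knockout samples, against 8.59, 8.89, 8.67 and 8.78 in wild-type samples. Every knockout sample was higher than every wild-type sample, and Axin2 was the only 1 of the 10 genes whose groups did not overlap, against 4.64% of all genes. The knockout samples also lay close together (SD 0.06, n = 4), against an SD of 0.13 in the wild-type samples. By pair, the ratios were 0.38, 0.12, 0.43 and 0.28, with a mean of 0.30 ± 0.13 (SD, n = 4), which is 1.23-fold. The interval ran between 0.03 and 0.57, with an unadjusted p of 0.0354 and an adjusted p of 0.594 in limma.

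Nkd1 had a log2 signal of 7.27, 7.39, 7.04 and 7.65 in knockout samples, against 7.42, 7.35, 7.44 and 7.53 in wild-type samples. Its knockout samples lay on both sides of the wild-type range, and the ratio was positive in pairs 2 and 5 and negative in pairs 1 and 4. The mean log2 ratio was -0.10 ± 0.23 (SD, n = 4), with an interval between -0.45 and 0.25. Axin2 and Nkd1 had opposite signs in pairs 1 and 4 and were both positive in pairs 2 and 5.

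Sox9 is a transcription factor of the crypt base and lower crypt. Its brightest probe had a log2 signal of 11.92, 12.35, 12.41 and 12.27 in knockout samples, against 11.47, 12.26, 11.96 and 11.39 in wild-type samples. The wild-type samples of pairs 2 and 4 reached into the knockout range, and those of pairs 1 and 5 lay below it. On the log2 scale the pairs gave 0.45, 0.09, 0.45 and 0.87, with a mean of 0.46 ± 0.32 (SD, n = 4), which is 1.38-fold. The interval ran between 0.11 and 0.82, with an unadjusted p of 0.0217 and an adjusted p of 0.594 in limma. With Agilent's processed signals and no loess, Sox9 passed the submitters' rule upward, the processed intensities being 23420 against 14201 in pair 4 and 19425 against 9420 in pair 5, knockout against wild type. The other Sox9 probes did not show the same pattern: a probe printed in 10 spots gave 0.53, -0.42, -0.05 and 0.00 with a mean of 0.02, and a dim probe gave -0.23, 0.68, 0.37 and 0.23. Within an array, the 10 spots had SDs of 0.04 to 0.07.

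Myc is a transcription factor that drives growth and proliferation and is a classic beta-catenin target in the colon. Its brightest probe, printed in 10 spots, had a log2 signal of 11.09, 11.53, 11.56 and 11.24 in knockout samples, against 11.10, 11.59, 11.11 and 11.35 in wild-type samples. The groups overlapped, and pair 4 alone showed a higher knockout sample. Its log2 ratios by pair were -0.01, -0.07, 0.45 and -0.11, with a mean of 0.07 ± 0.26 (SD, n = 4). The interval ran between -0.29 and 0.42, and the adjusted p was 0.924 in limma. The other Myc probes averaged 0.16 and 0.14 and also had their highest ratio in pair 4, at 0.75 and 0.78.

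Tcf7 encodes TCF1, a TCF/LEF factor that is expressed in crypt cells and strongly in T cells. Its log2 signal was 7.37, 7.75, 7.54 and 7.32 in knockout samples, against 7.62, 7.89, 7.56 and 7.34 in wild-type samples. The groups overlapped almost fully, since each knockout sample lay only slightly under its own partner. The log2 ratios were -0.25, -0.14, -0.02 and -0.02, with a mean of -0.11 ± 0.11 (SD, n = 4) and an adjusted p of 0.769 in limma. With Agilent's processed signals and no loess, the fitted log2 ratio was -0.27, so its size depended on the processing. The T cell markers had list medians of 0.12, -0.11, -0.26 and -0.02 in the 4 pairs, and the share of Tcf7 signal that came from T cells was not tested. A dimmer Tcf7 probe gave -0.38, 0.21, -0.05 and -0.02.

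Cd44 is a hyaluronan receptor that is high at the crypt base and is also carried by leukocytes and stromal cells. Its log2 signal was 11.65, 11.17, 10.06 and 11.12 in knockout samples, against 11.12, 11.83, 11.45 and 11.55 in wild-type samples. The knockout sample of pair 4 lay lowest of all, and the knockout sample of pair 1 exceeded 3 of the 4 wild-type samples, so the groups overlapped. The log2 ratios were 0.53, -0.65, -1.39 and -0.42, with a mean of -0.49 ± 0.79 (SD, n = 4), an interval between -1.26 and 0.29 and an adjusted p of 0.679 in limma. Leaving out 1 array at a time, the fitted log2 ratio ran from -0.78 without pair 1 to -0.19 without pair 2, with -0.24 without pair 4. Split by dye, the mean was -0.06 over pairs 1 and 2 and -0.91 over pairs 4 and 5. A second probe printed in 10 spots followed the same order, at 0.69, -0.64, -1.47 and -0.63, and its spots within an array had SDs of 0.05 to 0.09. Another, dim probe gave -0.29, 0.35, -0.33 and 0.01.

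The spread of Cd44 between pairs was larger than that of 93.3% of all genes. Fibroblast markers had list medians of 0.63, -0.69, -0.75 and 0.08 in pairs 1, 2, 4 and 5. These medians had the sign of Cd44 in pairs 1, 2 and 4. Single fibroblast markers lay on both sides of 0 in pairs 2, 4 and 5. The log2 of their summed signal ranged between 10.16 and 11.53 in knockout samples and between 10.44 and 11.45 in wild-type samples. Smooth muscle markers had medians of -1.03, -0.12, -0.39 and 0.32, opposite in sign to Cd44 in pairs 1 and 5. The median of the T cell markers had the sign of Cd44 in all 4 pairs, but it was close to 0 in pair 5. Single T cell markers lay on both sides of 0 in every pair. The log2 of their summed signal ranged between 10.42 and 10.91 in knockout samples and between 10.53 and 10.99 in wild-type samples. The part of any of these cell types in the Cd44 ratios was not tested.

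Ephb2 and Ephb3 are receptors for B-type ephrins that keep crypt base cells and differentiated cells in their places. Ephb2 had a log2 signal of 10.69, 11.17, 10.99 and 11.10 in knockout samples, against 10.79, 11.38, 10.96 and 11.11 in wild-type samples. The groups overlapped, and the 4 ratios lay between -0.21 and 0.03, a range narrower than that of any other of the 10 genes but Tcf7. The mean was -0.08 ± 0.11 (SD, n = 4) with an interval between -0.31 and 0.16. A dimmer Ephb2 probe ranged more widely, at -0.73, 0.70, 0.37 and 0.12, with a mean of 0.12.

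Ephb3 had a log2 signal of 10.75, 11.05, 11.18 and 10.76 in knockout samples, against 10.75, 11.82, 11.26 and 10.63 in wild-type samples. The groups overlapped, and only pair 2 showed a sizeable difference. By pair, the ratios were 0.00, -0.76, -0.08 and 0.13, with a mean of -0.18 ± 0.40 (SD, n = 4) and an interval between -0.62 and 0.27. Neither receptor passed the test in limma, with adjusted p-values of 0.85 for Ephb2 and 0.801 for Ephb3.

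**Figure D2:**
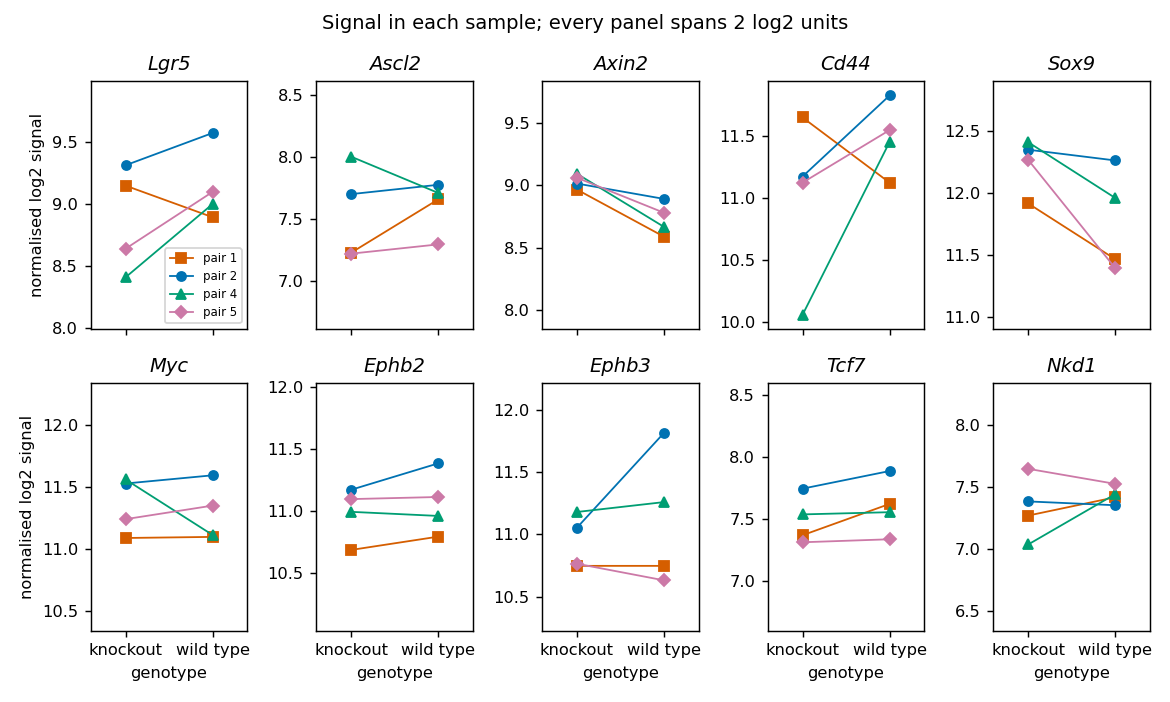
Normalised log2 signal of each of the 10 genes in the 4 knockout samples (left in each panel) and the 4 wild-type samples (right), with a line joining the 2 samples of an array pair; each panel spans 2 log2 units. In Axin2 every knockout sample lies above every wild-type sample, while the groups overlap in the other 9 panels.

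**Figure D3:**
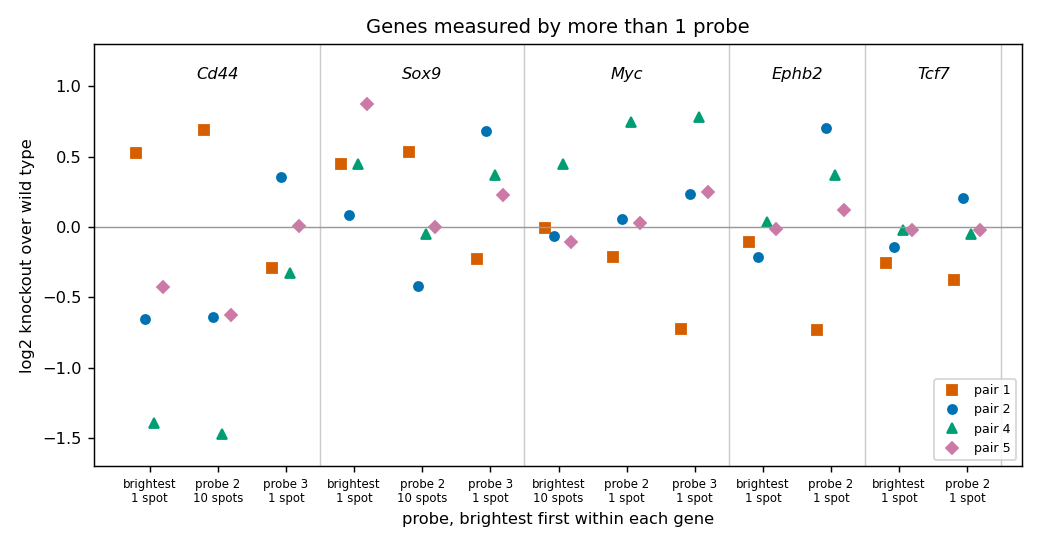
Log2 ratio of knockout over wild type (vertical axis) for each probe of the 5 genes measured by more than 1 probe, brightest probe first, with 1 symbol per array pair. The 2 brighter Cd44 probes follow each other, while the Sox9 probes differ, with means of 0.46, 0.02 and 0.26 in the order drawn.

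The 10 genes did not move as a block on any array. In pair 1, 5 were positive and 5 negative, in pair 2 the counts were 3 and 7, in pair 4 they were 5 and 5, and in pair 5 they were 4 and 6. The medians by pair were 0.00, -0.11, 0.01 and -0.02, against -0.03, -0.02, 0.00 and 0.00 over all genes. In the limma fit without pair 1, Ascl2 stood at 0.017, Axin2 at 0.24, Sox9 at 0.37, Ephb3 at -0.37 and Nkd1 at -0.06. None of the 10 genes was called in it, but it had fewer arrays than the fit that did not call Tlr2. Lgr5 and Cd44 were the 2 of 10 genes for which pair 1 had the opposite sign to pairs 2, 4 and 5, against 32.2% of all genes. Markers of position along the gut also differed between the pairs. The 8 measured genes of Hox paralog groups 10 to 13, which mark the distal end, had medians of -1.48, 0.50, 1.21 and 0.50. Single Hox genes lay on both sides of 0 in pairs 2, 4 and 5. No median is given for the markers of epithelium, absorptive colonocytes and goblet cells, because 5 of 7, 6 of 7 and 4 of 6 measured markers were saturated on at least 1 array. Hoxc10, Hoxc12 and Hoxc13 were not well above background in most channels. The part of sampling position or of cell mixture in the ratios of Lgr5 and Cd44 was not tested. Markers of proliferating cells, which sit in the lower crypt, had medians of -0.24, -0.18, -0.32 and 0.05, while the mean ratios of the 8 markers lay on both sides of 0, between -0.42 and 0.35.

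The rest of the pathway was read from 12 lists of ligands, receptors, signal carriers, targets and niche genes, and none of their measured members passed the adjusted test in limma. Of 19 Wnt ligands, 13 were measured above the filter, with mean log2 ratios between -0.20 and 0.01 and a median of -0.04. Wnt6 was lower in all 4 pairs, at log2 ratios of -0.37, -0.18, -0.08 and -0.19, and did not pass the submitters' rule here. Its levels in knockout and wild-type samples did not overlap, against 4.64% of all genes. Genes are named from these lists mainly by their small p-values, so such a separation is not a separate result. The authors' deposited table lists Wnt6 as decreased with an average linear ratio of 0.705. Wnt8b averaged -0.18, a mean carried by pair 1, and 0.0096 over pairs 2, 4 and 5. Wnt3 was well above background in 1 of 4 knockout samples and 3 of 4 wild-type samples. It passed the filter only through the wild-type samples, so its ratios are not read as a difference. Of the R-spondins and the genes that release Wnt ligands, 4 of 6 were measured.

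Rspo1, a ligand of Lgr5 and its relatives, was the only gene of these pathway lists past the submitters' rule downward. Its log2 ratios were -0.73, -0.29, -1.22 and -0.26, with a mean of -0.62 ± 0.45 (SD, n = 4) and an adjusted p of 0.594 in limma. All 4 ratios were negative although the levels of the groups overlapped. The authors' deposited table lists Rspo1 as decreased with an average linear ratio of 0.388, a larger decrease than the mean found here. Rspo4 was well above background in 1 of 4 knockout samples and 3 of 4 wild-type samples. Like Wnt3, it passed the filter only through the wild-type samples, so its ratios are not read as a difference. Wls, which carries Wnt ligands to the cell surface, had ratios of 0.00, 0.23, 0.86 and 0.30.

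Of 17 Wnt receptors and co-receptors 16 were measured, with a median of 0.00. Fzd10 was lower in all 4 pairs by its brightest probe, at -0.05, -0.60, -1.04 and -0.17. The levels of that probe in knockout and wild-type samples did not overlap, against 4.64% of all genes. The other Fzd10 probe gave 0.18, -0.48, -0.55 and -0.27, so it was higher in pair 1. Fzd7 and Fzd5 averaged 0.25 and 0.29, each positive in 3 of 4 pairs by its brightest probe. The other Fzd7 probe averaged 0.11. The other Fzd5 probe gave -0.72, 0.70, 0.15 and 0.33, with a mean of 0.11. Of 12 secreted inhibitors 8 were measured, with a median of 0.01. Their summed signal was also low, at log2 9.83 to 10.06 in knockout samples and 10.01 to 10.14 in wild-type samples. Wif1, which binds Wnt ligands outside the cell, was lower in all 4 pairs, at -0.23, -0.08, -1.02 and -0.58, with an unadjusted p of 0.0144 and an adjusted p of 0.594 in limma. Kremen1, a receptor for Dkk proteins, averaged 0.11 ± 0.47 (SD, n = 4). Sfrp4 was not well above background in any knockout sample and was so in 2 of 4 wild-type samples, so its ratios are not read as a difference.

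Among beta-catenin, its destruction complex and genes that act on or with that complex, all 10 genes were measured, with a median of 0.05. Dvl2 and Dvl1, the Dishevelled proteins that relay the receptor signal, averaged 0.27 and 0.14. The other Dvl1 probe gave -1.27, 0.71, 0.54 and 0.24, with a mean of 0.06. The kinase gene Gsk3b averaged -0.14, with 4 of 4 pairs negative by its brightest probe. The other Gsk3b probe gave -0.70, 0.46, -0.02 and -0.13. Among TCF/LEF factors and their co-factors 9 of 11 were measured, and their means had the widest range of the pathway lists, between -1.08 and 0.84. Tcf7l2, the main TCF of the intestinal epithelium, had ratios of -0.40, 0.88, 1.61 and 1.29, with an unadjusted p of 0.0256 and an adjusted p of 0.594 in limma, while its other probes averaged 0.23 and 0.35. Tcf7l1, a TCF that mostly represses, had ratios of -1.67, -1.002, 0.23 and -1.87, and Tle4, a co-repressor, had -0.86, 0.08, 1.59 and 0.90.

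Of 11 other intestinal Wnt targets 10 were measured, with a median of 0.01, and none had the same sign on all 4 arrays. Id2, an inhibitor of helix-loop-helix factors, averaged 0.43 by its brightest probe. The other Id2 probe gave 1.03, 0.07, -0.87 and 0.36, with a mean of 0.15. Rnf43 and Znrf3, ubiquitin ligases that remove Wnt receptors and so damp the signal as Axin2 does, averaged 0.28 and 0.35. Rnf43 was negative only in pair 2 and Znrf3 only in pair 1, at -0.86, whereas Axin2 was positive in every pair.

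Of 13 other crypt stem cell genes 12 were measured, with a median of 0.03 against the mean of -0.26 for Lgr5. Aqp4, a water channel, had ratios of 0.43, -0.24, 1.74 and 0.54 by its brightest probe. The other Aqp4 probes averaged 0.40 and 0.63 and were also highest in pair 4. Msi1, an RNA-binding protein, averaged -0.27, and Rgmb, a BMP co-receptor, averaged 0.24. Of 10 ephrins and other Eph receptors 9 were measured, with a median of 0.23, against means of -0.08 and -0.18 for Ephb2 and Ephb3. Efnb1 and Efnb2, ligands of these 2 receptors, averaged 0.36 and 0.39. Efnb1 was higher in all 4 pairs with levels that did not overlap, against 4.64% of all genes without overlap. Epha1 averaged 0.23. All 8 Myc partners and antagonists were measured, with a median of 0.09, and Mxd1, an antagonist that is high in differentiated cells, averaged 0.57 ± 0.64 (SD, n = 4), with 2 of the 4 knockout spots saturated. Max, the partner of Myc, averaged 0.19 and Mxd3 averaged 0.12, each positive in 3 of 4 pairs. The other Mxd3 probe averaged -0.05. Over pairs 2, 4 and 5 alone, some means of the genes named from these lists moved by more than 1.5 times, besides that of Wnt8b. They became 0.31 for Kremen1, -0.09 for Gsk3b, 0.86 for Tle4 and 0.23 for Id2. Those of Znrf3, Mxd1 and Max became 0.76, 0.87 and 0.55. That of Rspo4, which is not read as a difference, went from -0.10 to -0.06.

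**Figure D4:**
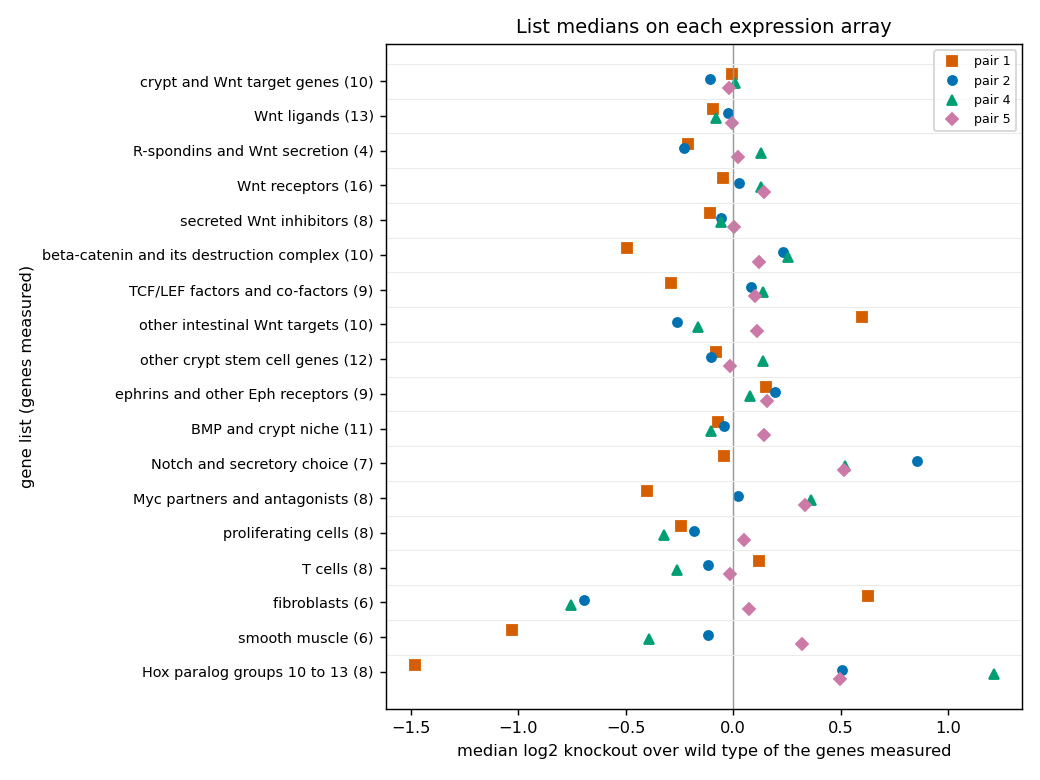
Median log2 ratio of knockout over wild type (horizontal axis) of each gene list on each array, with the number of genes measured in brackets; the 10 crypt and Wnt target genes are at the top, then the pathway lists and the cell type and position markers, without the 3 marker lists made up mostly of saturated probes. The medians of the 10 genes stay between -0.11 and 0.01, while those of the Hox genes run from -1.48 in pair 1 to 1.21 in pair 4.

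Promoter windows of 300 bases, 250 before and 50 after the annotated start, were available from RefSeq (GRCm38.p6) for 7 of the 10 genes, as 8 windows, and not for Lgr5, Sox9 and Myc. The TCF/LEF core motifs CTTTGAA and CTTTGAT, searched on both strands, were in 0 of the 8 windows, against 8.65% of 32851 windows of the same length. These letters were looked for in these windows only, and nothing follows from this for TCF/LEF binding elsewhere in the genes.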

How the data were processed

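Colonic mucosa was scraped off and frozen, and RNA was labelled with Cy3 or Cy5, per the labels' protocols. The scanner files deposited by the authors hold spot intensity from Agilent Feature Extraction. The file headers name version 10.5.1.1, whereas the submitters' processing notes name 8.5.1.1. The log10 ratio of Cy5 over Cy3 in these files, computed by that software as deposited, was only set against the processed signals. The authors also deposited tables of hits with linear ratios, knockout over wild type, and their normalisation is not given in the sources used.

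Median spot intensities were background corrected with normexp (offset 50) and loess normalised within each array (R 4.3.3, limma 3.58.1). Control and outlier spots were left out and replicate spots were averaged. A probe was kept if Agilent called it well above background in the same genotype on 2 or more arrays, and the brightest kept probe stood for its gene. Of the 41174 probes, 25114 had a symbol through their accession, 17 of them only through the authors' tables, and 21309 of these were kept. The log2 ratios were turned to knockout over wild type and fitted with a dye intercept and a sign per array (lmFit, eBayes). Signal levels per sample came from Aquantile after loess and were not compared between probes. The 4 arrays lie on 1 slide, so slide was no batch, and each array is a pair by construction. The number of arrays limits the precision.

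The 10 genes are all named. Of each pathway list, up to 3 measured members with the smallest unadjusted p and any gene past the submitters' rule are named, with Tlr2 as the check of the labels, and marker lists are given as counts, ranges and medians. The members and lists were chosen with earlier results of these data known. Procedures were tested on simulated data. Alternatives covered background, normalisation, filter, probes, dye term, pairing, fold threshold, dye orientation and each array left out. The methylation arrays were not used here.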

Additional observations from a re-analysis of the deposited data

Results flagged for a closer look

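In 66 groups of 4 values, which were the array ratios of the 10 genes and the other pathway genes named and the knockout and wild-type levels of the 10 genes, 5 had 1 array far from the other 3, by the gap to the nearest array over the whole range (past Dixon's 95% critical value). Chance gives such a gap in about 1 in 20 groups. None of the 10 crypt and Wnt target genes was among them. Pair 1 stood apart for Bmp2, at -1.41 against 0.86 to 1.16 on the other arrays, for Jag1, at -0.44 against 0.97 to 1.25, and for Wnt8b, at -0.74 against -0.03 to 0.06. Pair 5 stood apart for Efnb1, at 0.87 against 0.15 to 0.25. Pair 2 stood apart for Sfrp4, at -0.20 against -0.09 to -0.07, but no knockout sample was well above background there, so these ratios are not read as a difference.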

How the results depend on the processing

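No setting with a test called any of the 10 genes, and their smallest adjusted p was 0.134, for Lgr5 without pair 1. Over all genes, limma called 0 higher and 0 lower, and this also held with each array left out. With all 4 arrays even Tlr2 was not called, at an adjusted p of 0.314 in limma. The fits with an array left out had fewer arrays still, so 0 calls there cannot show that the result is stable. Limma called 1 higher and 2 lower with no dye term. With no replicate block (the samples of an array treated as unpaired) it also called 1 higher and 2 lower. It called 4 lower with Agilent's processed signals, 1 lower with no background correction and 1 lower with the strict filter. With the processed signals 1 of the 10 genes passed the submitters' rule upward. The median of the 10 genes was 0.018 over the arrays with the knockout in Cy5 only. Genes negative on every array used numbered 4 with the knockout in Cy3 only, 3 with it in Cy5 only, 0 with the mean of all probes, and 1 to 4 with 1 array left out. Signs turned for Ascl2 (0.11), Ephb2 (0.0080) and Ephb3 (0.027) with the knockout in Cy5 only, for Myc (-0.037) with it in Cy3 only, and for Ephb2 with the mean of its probes (0.020) or its dimmer probe (0.12). With 1 array left out, Ascl2 ran between -0.16 and 0.020, Ephb3 between -0.37 and 0.014, Myc between -0.073 and 0.20, and Nkd1 between -0.23 and 0.031. The causes were not tested. Lgr5 stayed negative, between -0.52 and -0.0029, and Cd44 between -0.91 and -0.064. Axin2 stayed between 0.24 and 0.43, and Sox9, its other probes included, between 0.019 and 0.66.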

Other observations

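Signals that oppose Wnt in the crypt or steer cells out of the stem cell state were read from lists of BMP and Notch genes. Of 7 Notch and secretory genes measured, the median of the mean log2 ratios was 0.22, and none passed the adjusted test in limma. Dll1, a Notch ligand of secretory progenitors, had ratios of 0.25, 0.98, 1.15 and 0.52 in pairs 1, 2, 4 and 5. Its levels in knockout and wild-type samples did not overlap, against 4.64% of all genes. It passed the submitters' rule upward, against 1.48% of all genes in either direction, with an adjusted p of 0.594 in limma. The authors' deposited table lists Dll1 as increased with an average linear ratio of 1.89. Atoh1, the transcription factor that starts secretory differentiation, had -0.63, 1.12, 0.84 and 0.75, and the Notch ligand Jag1 averaged 0.75 ± 0.80 (SD, n = 4), while its dimmer probe averaged 0.09. Of 12 BMP and niche genes 11 were measured, with a median of -0.03. Id1, a target of BMP signalling, had ratios of 0.24, -0.08, 0.64 and 0.84, with an unadjusted p of 0.0174 and an adjusted p of 0.594 in limma, and Bmpr1a, a BMP receptor, averaged 0.30. By its other probe, Bmpr1a averaged 0.02. Bmp2 averaged 0.42 ± 1.23 (SD, n = 4), with pair 1 opposite in sign to the other arrays. Over pairs 2, 4 and 5 alone, the means were 1.03 for Bmp2, 1.15 for Jag1, 0.90 for Atoh1 and 0.53 for Bmpr1a.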
